A study of Homo sapiens with 23 samples.

Results

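The S100 proteins are small EF-hand proteins that bind calcium and then dock onto partner proteins inside the cell. Most of their genes lie together on the long arm of chromosome 1, and several are also secreted and bind cell-surface receptors such as AGER and TLR4. In breast and squamous epithelium S100A2 and S100A14 are known as epithelial members, S100A4 and S100A6 as genes of motile or mesenchymal cells, and S100A8 with S100A9 as the pair that forms calprotectin. The 10 members described here are S100A2, S100A4, S100A6, S100A7, S100A8, S100A9, S100A10, S100A11, S100A14 and S100A16. They are 10 of the 58358 genes in the RNA table, chosen by name because S100A2 and S100A14 varied strongly between mutant lines. Those values are therefore a description with no test, and every other member was carried along as family.

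RNA-seq was made from 13 lines of MCF10A, a non-transformed human mammary epithelial line, with 1 library a line. In 4 mutant lines the cells carried a DNA contact mutant of p53 (R248Q, R248W, R273C and R273H) and in the other six a structural mutant (G245S, H179R, R175H, Y163C, Y220C and Y234C), each expressed stably with a C-terminal V5 tag on top of the endogenous wild-type protein. By the authors' western blots, mutant p53 protein was elevated in every mutant line but Y234C. The 3 control lines were parental MCF10A (WT), a line with the wild-type protein knocked down by shRNA (WTKD) and a line labelled as expressing V5-tagged wild-type p53 (WTOE). All 13 were grown untreated in the same medium with EGF. The mutants were in one lentiviral vector and the WTOE construct in another, so vector and mutation cannot be told apart for the mutants. With 1 library a line, lines are the unit of every comparison, and p-values measure only the spread between lines.

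R273H, with 12122 genes above 0, WT with 12284 and Y234C with 12409 had the fewest detected genes, and the remaining 10 lines had 13080 to 15975. Summed TPM of 13 basal mammary markers was 2880 to 6687 in mutant lines and 4350 to 7204 in control lines. All 6 lymphoid markers and 6 of 10 myeloid markers, the leukocyte marker PTPRC among them, were listed at 0 in every line. CD14 of the myeloid list was above 0 in every line but R273H, with a log2(TPM + 1) of 5.64 in WT. Summed TPM of 7 fibroblast markers was 3.03 to 61.6 in mutant lines and 2.69 to 7.91 in control lines. Of these markers DCN was above 0 in every line, and LUM was above 0 in mutant lines only. Single basal markers were less even than their sum. In log2(TPM + 1), KRT14 was at 0 in R273H, 0.38 in WTKD, 1.04 in WT and 8.23 in R248Q, and COL17A1 was at 0.22 in R273H. Read depth is unknown, because TPM keeps none. The authors report high read duplication, and mitochondrial reads that took up much of every library to an uneven degree.

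Taken as a family, the members were among the most abundant messages of these cells. Their summed share of all TPM ran between 1.87% in R248W and 5.39% in R175H, and S100A2, S100A6 and S100A11 together made up 81.7% to 94.3% of that share. S100A2 was the highest member in 6 lines and S100A11 in the other 7, which included all 4 DNA contact lines, G245S, Y220C and the library labelled WTOE. TPM is scaled by gene length but does not correct for uneven amplification of the RNA, so levels of different genes can be compared only roughly. S100A7, psoriasin, was listed at 0 in all 13 lines, as was its near-identical copy S100A7A, and was left untested. The other 9 members were among the 14884 genes tested, those at a log2(TPM + 1) of 1 or more in 3 or more lines.

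**Figure D1:**
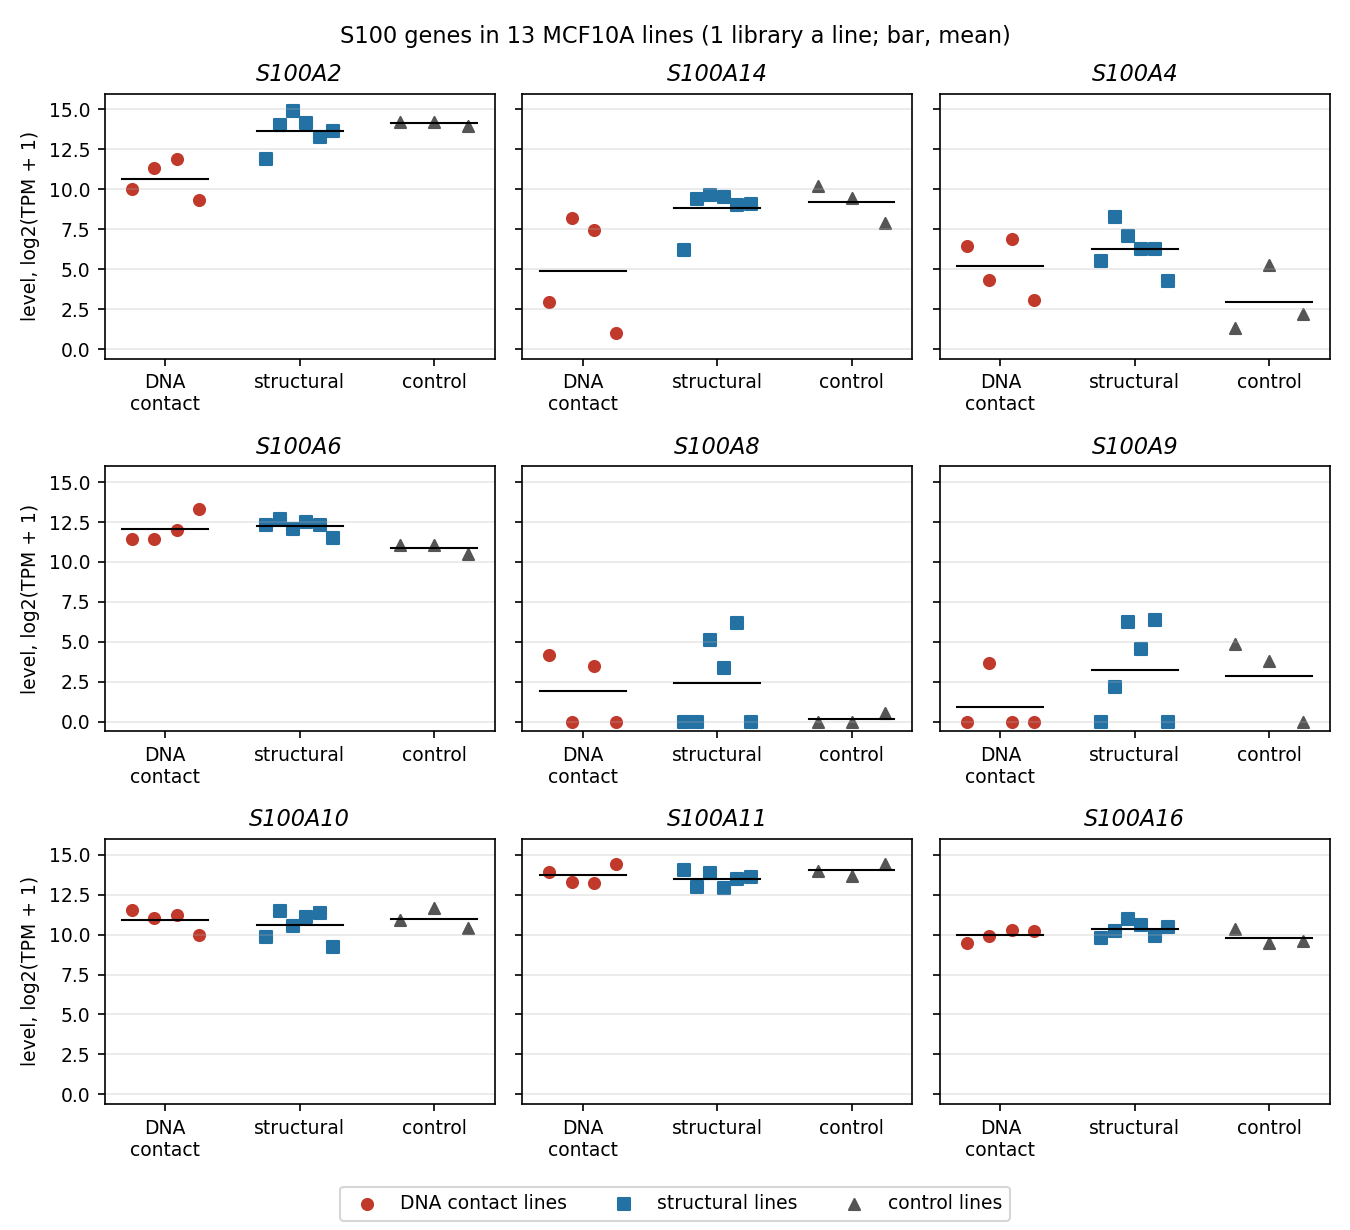
Level of each expressed S100 gene on the log2(TPM + 1) scale in DNA contact, structural and control lines, with 1 point a line and a bar at the mean. S100A2 and S100A14 are spread over many log2 units, S100A6 lies higher in all mutant lines than in the controls, and S100A10, S100A11 and S100A16 are high in every line, S100A10 with a range of 2.32 log2 units over mutant lines.

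The promoters of the members that carry the expression pattern are shown first. S100A2 (ENSG00000196754) spans chr1:153561108-153567890 and S100A14 (ENSG00000189334) chr1:153614255-153616986, both on the minus strand of GRCh38. The stretches run 5′ to 3′ on the coding strand and end before the main start site. Other annotated starts of both genes lie further upstream, and the stretches hold no annotated exon. Capitals mark the AP-1 element TGANTCA, searched on both strands.
S100A2, chr1:153565845-153566044: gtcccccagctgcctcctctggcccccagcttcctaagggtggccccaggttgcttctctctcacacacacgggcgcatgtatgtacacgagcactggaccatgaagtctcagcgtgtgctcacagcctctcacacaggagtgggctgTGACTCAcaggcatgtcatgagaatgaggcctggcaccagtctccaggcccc
S100A14, chr1:153616356-153616555: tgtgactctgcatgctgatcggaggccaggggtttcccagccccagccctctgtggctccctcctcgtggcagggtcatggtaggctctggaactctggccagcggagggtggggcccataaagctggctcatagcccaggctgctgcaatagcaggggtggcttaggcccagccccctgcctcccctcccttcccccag

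S100A2 carries 1 TGANTCA, whose first base is at position -52 from the main start site, and the printed S100A14 stretch carries none. Among the RefSeq promoter windows of GRCh38.p14, which hold 250 bases before and 50 after each start, 7.71% of 35116 hold this element, and so does 1 of the 14 windows of the members. The p53 half-site decamer, the ten-base unit of which p53 and p63 sites hold a pair, is in 6.63% of all windows and in 2 of the 14 member windows, those of S100A7 and S100A16. Neither S100A2 nor S100A14 holds it there. A match is a description of letters only. Capitals below mark that half-site.
S100A7, chr1:153460702-153460801: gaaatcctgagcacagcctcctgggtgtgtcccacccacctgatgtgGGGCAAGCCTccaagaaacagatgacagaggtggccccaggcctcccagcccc
S100A16, chr1:153613308-153613407: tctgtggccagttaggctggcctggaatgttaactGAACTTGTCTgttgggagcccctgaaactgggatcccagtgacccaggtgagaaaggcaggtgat

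S100A2, a nuclear S100 protein that binds p53 itself, was the member with the widest absolute levels. Among the DNA contact lines it was at 1041 TPM in R248Q, 2541 in R248W, 3791 in R273C and 657 in R273H. Among the structural lines it was at 3902 TPM in G245S, 16419 in H179R, 30198 in R175H, 18449.8 in Y163C, 10069.8 in Y220C and 12934 in Y234C, and the controls were at 19128 TPM in WT, 19315 in WTKD and 16192 in the library labelled WTOE. All 4 contact lines were below all 6 structural lines, with 0.0414 log2 units between R273C and G245S, the lines that meet at the boundary. Over all genes tested, 39 (0.262%) had their contact lines wholly below the structural lines. Because this pattern led to the choice of the gene, the contact-minus-structural difference of -3.01 in log2(TPM + 1) is given with no test. For mutant lines minus control lines the difference was -1.69 ± 0.96 (limma, SE, unadjusted p = 0.0957, adjusted p = 0.932, 10 mutant and 3 control lines). Of the 10 mutant lines, 7 were below every control. The spread of these mutant lines, on which the gene was chosen, enters this SE and p, so the test is not free of the choice.

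S100A14, a membrane-associated member of epithelial cells, had the larger relative spread. On the log2(TPM + 1) scale, used for all levels from here on, the contact lines were at 2.96 in R248Q, 8.22 in R248W, 7.48 in R273C and 1.02 in R273H. The structural lines were at 6.23 in G245S, 9.40 in H179R, 9.68 in R175H, 9.55 in Y163C, 9.03 in Y220C and 9.11 in Y234C. The controls were at 10.20 in WT, 9.45 in WTKD and 7.88 in the library labelled WTOE. R273H and R248Q were thus set apart from all other lines, and contact and structural lines overlapped, since G245S lay below R248W and R273C. The mutant-minus-control difference was -1.91 ± 1.52 (limma, SE, adjusted p = 0.932). As for S100A2, the spread used for the choice enters this SE and p. The SD of S100A14 over the mutant lines stood at the 99.9th percentile of all genes tested and that of S100A2 at the 95.8th, which restates why they were chosen.

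Mutations of one residue differed in level. S100A14 was at 2.96 in R248Q and 8.22 in R248W, which change the same arginine. It was at 7.48 in R273C and 1.02 in R273H, which change another. S100A2 was lower in R248Q than in R248W and lower in R273H than in R273C as well, so in each pair the same line had the lower value of both genes. With 1 library each, these pairs have no replicate error against which to set them, and the same is true of any neighbours in the order of lines. R273H was one of the libraries with few detected genes. Without R273H and Y234C, the range over mutant lines was 4.86 log2 units for S100A2 and 6.72 for S100A14, against 5.52 and 8.65 with them.

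**Figure D2:**
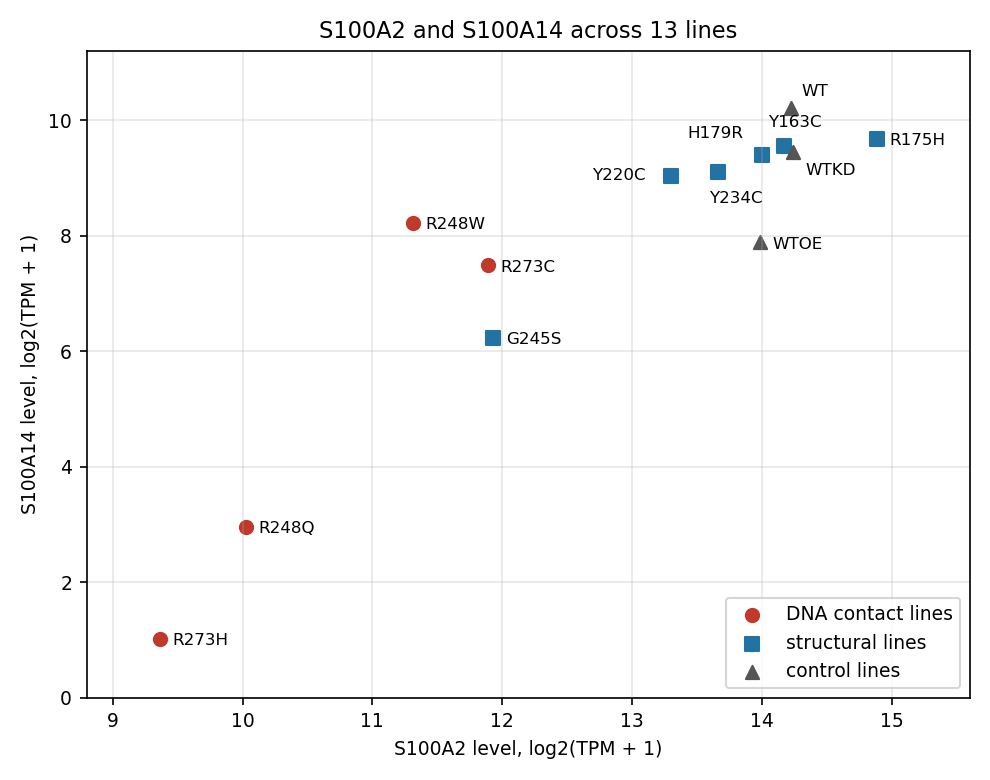
Level of S100A14 against S100A2 on the log2(TPM + 1) scale, with 1 labelled point for each of the 13 lines. The points run along a diagonal, with R273H and R248Q lowest for both genes, R248W, R273C and G245S between, and the remaining structural lines and WT and WTKD highest.

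S100A2 and S100A14 followed each other over the lines. Pearson's r of their log2 levels was 0.910 over 13 lines and 0.864 over the 11 lines without R273H and Y234C. The points share library preparation, sequencing and scaling, and r is a description with no p. Ranked over 8163 genes with a mean of at least 3, the genes most like S100A2 were DSG3 (0.935), ITGA6 (0.921), ITGB6 (0.912), S100A14 and TSPAN1 (0.900). Those most like S100A14 were DSG3 (0.951), MAP7 (0.945), CDH1 (0.944), EPCAM (0.928) and MCC (0.925). The order leaned on R273H and Y234C. Without these lines the genes named for S100A2 stood at ranks 6, 13, 7, 18 and 9, in the order given. Those named for S100A14 stood at ranks 5, 21, 19, 4 and 8. DSG3 is a desmosomal cadherin, CDH1 is E-cadherin, EPCAM is an epithelial adhesion molecule, and ITGA6 and ITGB6 are integrin chains of epithelia. CDH1 was at 0.96 in R248Q, 6.15 in R248W, 5.89 in R273C and 0.25 in R273H, then at 4.47 to 6.29 in the structural lines and 5.59 to 6.41 in the controls. It was low in the same 2 lines as S100A14. EPCAM and DSP of the epithelial list were also lowest in these 2 lines, at 2.53 and 6.52 in R248Q and 3.51 and 6.29 in R273H. KRT8 and KRT7 did not share this in R248Q: KRT8 was at 7.83 there, the highest of the 13 lines, and KRT7 at 11.66. In R273H, KRT8 was at 5.27 and KRT7 at 10.78. The summed TPM of 10 epithelial markers was 1946 to 4782 in contact lines, 2223 to 7365 in structural lines and 2294 to 4031 in controls, and that of 13 basal mammary markers was 2880 to 3978 in contact lines, 3374 to 6687 in structural lines and 4350 to 7204 in controls. Of the basal markers, 12 of 13 had a negative contact-minus-structural difference, while 50.4% of all genes tested had a positive one. Their median was -0.85, beside 0.01 over all genes tested. At an unadjusted p under 0.05 (limma) 4 of the 13 stood, all lower, beside 2.07% of all genes lower and 4.93% in either direction. None passed the adjusted threshold. The part of epithelial or basal state in the S100 levels was not tested.

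TP63, the p53 family member that maintains basal epithelium and is known to act on the S100A2 promoter, was listed at 0 in R248W, R273C and R273H and was at 3.25 in R248Q. It was at 1.83 in G245S, at 3.31 to 4.87 in the other structural lines and at 4.80 to 5.41 in the controls. Its r with S100A2 was 0.793 over 13 lines and 0.733 without R273H and Y234C, and with S100A14 it was 0.576 and 0.399. R248Q broke the likeness, with TP63 above every other contact line and S100A2 below R248W and R273C. The TP63 differences of -2.49 ± 1.05 for mutant minus control lines and -3.11 ± 0.77 for contact minus structural lines did not pass the test over all genes (limma, SE; adjusted p = 0.932 and 0.764). Of the 9 tested genes in a list of 12 S100 regulators, which held TP63, CEBPB, KLF4 and GRHL3, none passed in either comparison.

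S100A6, calcyclin, was the member whose mutant and control lines did not overlap. It was at 11.43 in R248Q, 11.43 in R248W, 12.02 in R273C and 13.34 in R273H, and at 12.28 in G245S, 12.68 in H179R, 12.04 in R175H, 12.53 in Y163C, 12.31 in Y220C and 11.50 in Y234C. The controls were at 11.04 in WT, 11.08 in WTKD and 10.48 in the library labelled WTOE. Every mutant line lay above every control, by 0.34 log2 units at the closest pair, R248Q and WTKD. The same held for 33 of the 14884 genes tested (0.222%), and the reverse, with all mutant lines lower, for 116 (0.779%), so 1 of 9 members stood in the first set and none in the second. The difference was 1.29 ± 0.46 (limma, SE; unadjusted p = 0.0127, adjusted p = 0.823), and it did not pass the test over all genes. Leaving out single lines moved it between 1.09 and 1.39. S100A6 shares 37 of its 971 exonic bases with an antisense lncRNA, and strand use in the counting is not given in the sources used here.

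S100A4, metastasin, which binds non-muscle myosin MYH9, had the largest mutant-minus-control difference of the members. It was at 6.47 in R248Q, 4.31 in R248W, 6.89 in R273C and 3.09 in R273H, and at 5.50 in G245S, 8.25 in H179R, 7.08 in R175H, 6.30 in Y163C, 6.30 in Y220C and 4.28 in Y234C. The controls were at 1.35 in WT, 5.29 in WTKD and 2.19 in the library labelled WTOE. The groups overlapped only through WTKD: 7 mutant lines lay above it and R248W, Y234C and R273H below it, and all 10 lay above WT and WTOE. The difference was 2.90 ± 0.95 (limma, SE; unadjusted p = 0.00749, adjusted p = 0.697), and over single lines left out it ran between 2.11 without WT and 4.07 without WTKD, with adjusted p = 0.961 and 0.270 there. Without the library labelled WTOE it was 2.52 (adjusted p = 0.970). S100A4 spans S100A3 on the same strand with no shared exon base. S100A3, a hair and skin member, was at 4.21 to 8.00 in mutant lines and 5.14 to 6.54 in controls.

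S100A4 and S100A6 had r = 0.453 over 13 lines and 0.799 without R273H and Y234C, where R273H combined the highest S100A6 with the lowest mutant S100A4. S100A4 ran against S100A11, at r = -0.644 over 13 lines. MYH9 differed by -0.46 ± 0.39 between mutant and control lines (limma, SE; adjusted p = 0.932).

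S100A8 and S100A9, the calprotectin subunits, were low and not in step. S100A8 was at 4.19 in R248Q, 3.51 in R273C, 5.11 in R175H, 3.36 in Y163C, 6.20 in Y220C and 0.55 in the library labelled WTOE, and was listed at 0 in the other 7 lines. S100A9 was at 3.68 in R248W, 2.16 in H179R, 6.24 in R175H, 4.54 in Y163C, 6.40 in Y220C, 4.88 in WT and 3.80 in WTKD, and was listed at 0 in the other 6. Both were above 0 in 3 lines, R175H, Y163C and Y220C, all structural. S100A8 alone was above 0 in 3 lines and S100A9 alone in 4, and both were listed at 0 in R273H, G245S and Y234C. Their r was 0.428 over 13 lines. R273H and Y234C were among the libraries with few detected genes. In these libraries 14.8% and 9.58% of 3715 genes with a mean of 2 to 4 were listed at 0, against 9.07% in WT and 0.700% to 5.60% in the others.

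**Figure D3:**
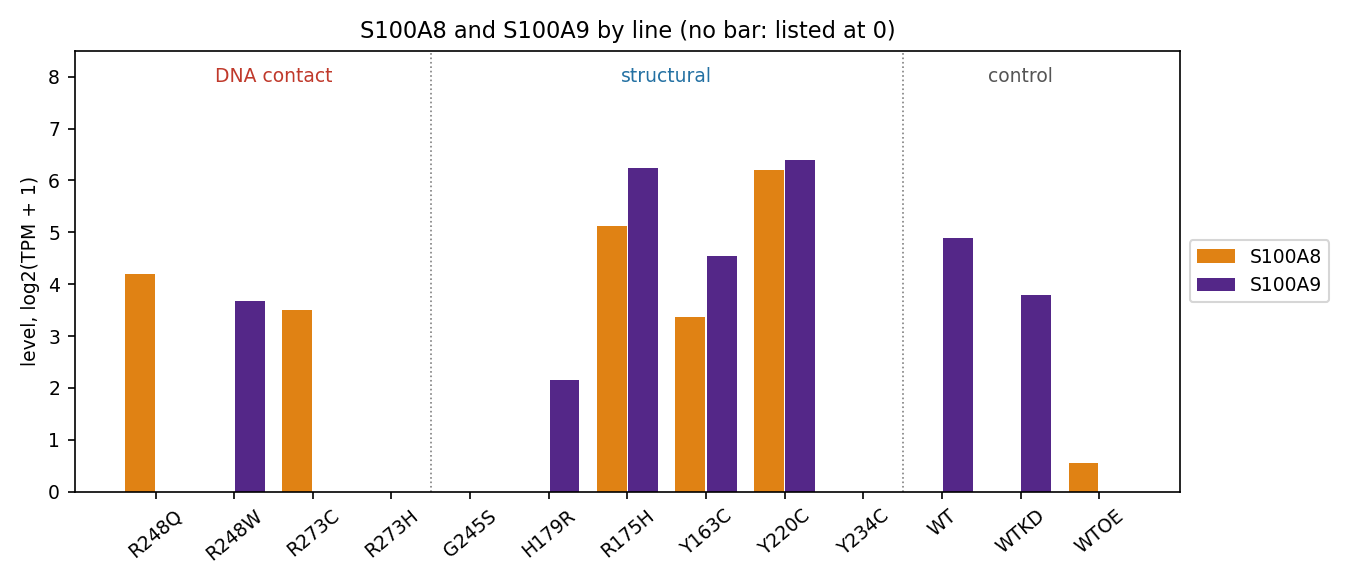
Levels of S100A8 and S100A9 on the log2(TPM + 1) scale as paired bars for each line, contact lines at the left, then structural and control lines. Bars are present for both genes in R175H, Y163C and Y220C only, and R273H, G245S and Y234C have no bar.

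The mutant-minus-control differences were 2.05 ± 1.25 for S100A8 and -0.59 ± 1.47 for S100A9 (limma, SE; adjusted p = 0.932 and 0.982), and the contact-minus-structural differences were -0.52 ± 1.34 and -2.30 ± 1.32 (adjusted p = 0.996 and 0.970). S100A8 met the filter on low values through mutant lines alone, since no control was above 0.55. Its mutant-minus-control test is therefore not free of that filter. S100A9 was above 0 in 1 of 4 contact lines and 4 of 6 structural lines. Neutrophils and monocytes carry much of both proteins, and of 10 myeloid markers 6 were listed at 0 in all lines, with a summed TPM of 0.835 to 25.6 in mutant lines and 4.62 to 52.6 in controls. Of the receptors of these ligands, AGER was listed at 0 in all 13 lines, and TLR4 was at 0 to 2.47 in mutant lines and 0 to 1.49 in controls. BSG, which is also known as an S100A9 receptor, was at 8.52 to 11.39 in mutant lines and 8.64 to 10.06 in controls. Over the mean of S100A8 and S100A9, genes with the most similar pattern included RYBP (0.833), ZBTB6 (0.783), MBTPS2 (0.770) and RHOT1 (0.769).

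S100A10, S100A11 and S100A16 were high in every line. S100A10, the light chain that binds annexin A2, was at 9.23 (Y234C) to 11.55 (R248Q) in mutant lines and 10.42 to 11.66 in controls. S100A11, a partner of annexin A1, was at 12.89 (Y163C) to 14.43 (R273H) in mutant lines and 13.64 to 14.41 in controls. S100A16, a broadly expressed member, was at 9.47 (R248Q) to 10.98 (R175H) in mutant lines and 9.48 to 10.37 in controls. The groups overlapped for all 3. Their SD over mutant lines stood at percentile 32.4, 5.92 and 3.51 of all genes tested. Among the 96 genes of similar mean, however, the SD of S100A10, 0.79, stood at percentile 81.2, beside a median SD of 0.62, and its range over the mutant lines was 2.32 log2 units. The mutant-minus-control differences were -0.27 ± 0.53, -0.44 ± 0.43 and 0.37 ± 0.42 in that order (limma, SE; adjusted p = 0.975, 0.932 and 0.934). S100A11 has pseudogene copies, so its level is uncertain where reads map to several places.

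The annexins they bind were followed in a list of 10 S100 partners, which also held genes that are not annexins, such as MYH9. All 10 were tested, and none passed in either comparison. ANXA2 was at 9.88 (R273H) to 12.05 (R248W) in mutant lines and 11.21 to 11.47 in controls. It had r = 0.675 with S100A10 over 13 lines, which fell to 0.277 without R273H and Y234C, the lines with the lowest ANXA2. ANXA1 had r = -0.283 with S100A11. ANXA6 had the largest differences of the list, 2.94 ± 1.04 for mutant minus control lines and 2.48 ± 0.78 for contact minus structural lines (limma, SE; adjusted p = 0.808 and 0.960). Of the other S100 family genes, 3 of 10 were tested, S100A3, S100A13 and S100P, and none passed.

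Over the whole family, 0 of the 9 members tested passed an adjusted p of 0.05 in mutant versus control lines with limma. Of all genes tested 3 passed (0.0202%), 1 higher and 2 lower. At an unadjusted p under 0.05, 2 of 9 members stood, S100A4 and S100A6, both higher, against 719 of 14884 genes in either direction (4.83%) and 288 higher (1.93%). The median member difference was -0.27, beside -0.08 over all genes tested, and 4 of 9 were positive, beside 45.0% of all genes. These 9 include S100A2 and S100A14, chosen for their spread over mutant lines, and S100A8, which met the filter through mutant lines alone. The counts over the 9 are therefore a description. In contact versus structural lines 0 of the 7 members not used for the choice passed, none had an unadjusted p under 0.05, and 0 of 14884 genes passed (0%), while 734 had an unadjusted p under 0.05 (4.93%), 2.86% higher and 2.07% lower. The contact-minus-structural differences of these 7 ran between -2.30 for S100A9 and 0.36 for S100A10. An adjusted p that misses the threshold does not show that the groups were alike.

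**Figure D4:**
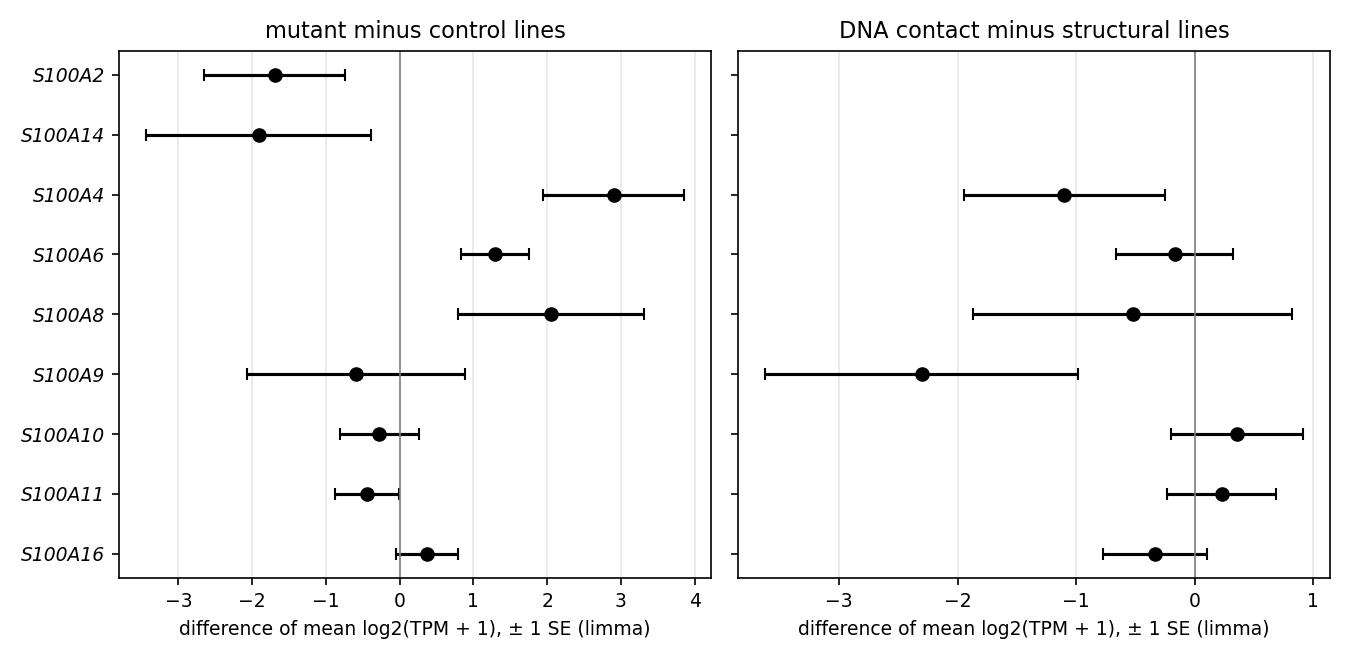
Difference of mean log2(TPM + 1) for each expressed S100 gene, mutant minus control lines at the left and DNA contact minus structural lines at the right, with bars of 1 SE from limma. S100A4 and S100A6 lie to the right of 0 by more than 2 SE at the left, and S100A2 and S100A14 are left out at the right because they were chosen on that spread.

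p53 binding was read from V5 ChIP-seq peaks of 5 lines, R273C, R273H, Y220C, Y234C and WTOE, with 1 ChIP library a line against its own input DNA and no replicate. A promoter peak was a peak that overlapped, by at least 1 bp, the stretch from 2500 bp upstream to 100 bp downstream of any annotated start. R273H had one at 1 of 10 members, S100A10, where 2.79% of 20033 protein-coding genes had one. WTOE had one at 2 of 10, S100A2 and S100A16, where 6.37% of genes had one. R273C, Y220C and Y234C had none, with 0.0499%, 0.434% and 1.19% of genes. S100A14 and S100A4, S100A6, S100A7, S100A8, S100A9 and S100A11 had none in any list.

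The WTOE peak of S100A2 lay inside the gene at chr1:153564049-153564596, with summits 1293 and 1659 bp downstream of the main start site. The first summit was in an intron, at -318 bp from an alternative start, with 2.98-fold enrichment over input and a -log10 q of 2.01. The second was in a non-coding part of an exon, with 2.62-fold enrichment and a -log10 q of 1.41. At S100A16 the summit nearest the main start was 421 bp downstream of it in an intron, with 3.10-fold enrichment and a -log10 q of 1.90. A second S100A16 peak had 2.84-fold enrichment near an alternative start. The nearest WTOE summit to the S100A14 start was that of the 3.10-fold peak, 3609 bp away. At S100A10 the R273H summit lay 2 bp from the main start site, at chr1:151993647-151994045, with 4.42-fold enrichment and a -log10 q of 2.85. The median fold enrichment over the whole list was 3.08 for WTOE and 4.54 for R273H. The S100A16 peak with 3.10-fold enrichment was thus just above the middle of its list, and the others were below the middle of theirs.

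The S100A2 summit with 50 bases on either side and the part of the S100A10 peak upstream of the start are shown on the coding strand, as the stronger of the S100A2 summits and the R273H promoter peak. Neither holds the p53 half-site decamer, so nothing is in capitals.
S100A2 summit, chr1:153564501-153564601: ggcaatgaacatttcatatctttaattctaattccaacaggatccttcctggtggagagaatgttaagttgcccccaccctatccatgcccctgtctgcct
S100A10 upstream part, chr1:151993860-151994045: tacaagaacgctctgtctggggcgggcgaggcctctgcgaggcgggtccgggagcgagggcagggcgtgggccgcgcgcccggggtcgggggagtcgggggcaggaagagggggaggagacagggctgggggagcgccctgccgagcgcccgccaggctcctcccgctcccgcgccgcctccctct

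No half-site lay within 150 bases of any summit that fell over a member or within 5 kb of one. Over all summits of chromosome 1, 6.46% of 2847 in WTOE and 5.95% of 2083 in R273H had one, so a miss at these few summits is what most summits show. WTOE peak regions were denser here than over the whole chromosome. The stretch between S100A9 and S100A14 held 11 regions, or 42.4 per Mb, the 10 Mb on either side with that stretch 26.4 per Mb, and chromosome 1 as a whole 10.7 per Mb. The part of this density in the S100 overlaps was not tested. The S100A10 level in R273H, 9.99, was among the lower mutant values, and that of S100A2 in the library labelled WTOE, 13.98, was the lowest of the controls by 0.24 log2 units. With 1 library each, binding and level cannot be compared further.

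**Figure D5:**
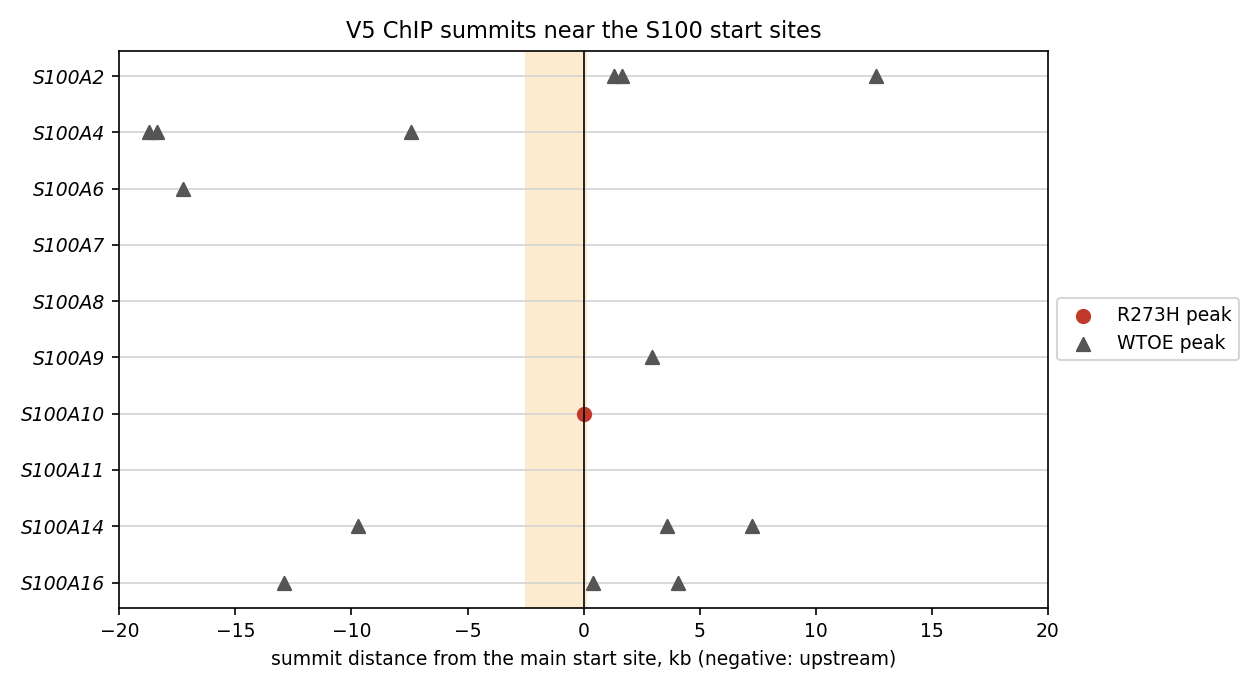
Distance in kb of V5 ChIP summits from the main start site of each S100 gene, within 20 kb and with upstream to the left. R273H has 1 summit in view, at the S100A10 start, WTOE summits are drawn 14 times at 6 genes, since 1 summit can lie near several starts, and the shaded band is the promoter window of the main start.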

How the data were processed

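Total RNA was amplified by single-primer isothermal amplification before library construction. Reads were aligned by the authors with STAR against Ensembl GRCh38, and mitochondrial RNA was removed before the authors deposited TPM as log2(TPM + 1). The deposited TPM of every line sums to 1000000. For ChIP-seq the authors used Bowtie2 2.1.0, SAMtools 1.7 and MACS2 2.1.2.20181017 with input DNA as control and a q limit of 0.05. The fold enrichment (a ratio of ChIP to input), the -log10 p and q and the score of each peak are as deposited by the authors. HOMER 4.9.1 output was not used.

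A gene was tested if it reached a log2(TPM + 1) of 1 in 3 lines. The tests were two-sided fits with limma 3.58.1 in R 4.3.3, adjusted by Benjamini-Hochberg over all such genes, and were tested on simulated data. Differences on this scale understate changes of low genes. Annotation was GENCODE 44 of GRCh38. The members and lists were chosen with earlier results of these data known. Named genes are the members, up to 4 genes of largest difference in each list with ANXA1, ANXA2, TP63, AGER and TLR4, and 5 genes of most similar pattern; genes given beyond these were picked after their values were seen. Alternatives were a pseudocount of 0.1, no filter, quantile normalization, detected genes as a covariate, each line left out, and R273H with Y234C left out. Peak alternatives were a q of 0.01, a window from 1000 bp upstream, and the summit inside the window. The level of the targeted gene and 1 of the genes most similar to S100A8 and S100A9 are not reported here.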

Additional observations from a re-analysis of the deposited data

Results flagged for a closer look

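Over the contact lines, the structural lines and all mutant lines, 27 groups of member values were examined for a single line far from the rest by Dixon's criterion, and 2 were found. Chance alone gives about 1 in 20 such groups. S100A9 in R248W was at 3.68, with the other 3 contact lines listed at 0. Where all other lines are tied at 0 any value above 0 meets this criterion, and 1 of those lines is R273H, where many low genes were listed at 0. S100A14 in G245S was at 6.23, the lowest of the 6 structural lines, with the other five at 9.03 to 9.68. S100A14 was chosen for its spread over these lines, so this is a description and no test. G245S also had the lowest S100A2 of the structural lines, at 11.93.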

How the results depend on the processing

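With 1 library a line, 3 controls and unknown depth, effects of the size seen here could be missed. No tested member passed the adjusted threshold under any setting. The number of genes called over the whole table did move. For mutant versus control lines it was 3, and it was 6 with a pseudocount of 0.1, 5 without the filter, 5 with detected genes as a covariate and 8 without R273H and Y234C, and 0 to 11 when single lines were left out, with 11 without WTKD, 8 without WT, 7 without R273H, 6 without Y234C, 1 without R248Q or WTOE and 0 without R248W, G245S, H179R, Y163C or Y220C. For contact versus structural lines it was 0, and it was 5 with a pseudocount of 0.1, 1 without the filter, 1 without R273H and Y234C and 0 to 1 when single lines were left out. At a stricter q of 0.01, WTOE had a promoter peak at 1 member, S100A2, in place of 2.

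Small differences changed sign. The S100A10 mutant-minus-control difference was 0.0046 without R273H and Y234C, and over single lines left out it ran between -0.56 and 0.054, the last without WTKD. S100A9 ran between -2.04 and 0.40 there, the last without WT. In contact minus structural lines, S100A8 ran between -1.28 and 0.23, with 0.011 without R175H, 0.12 without R248W or R273H and 0.23 without Y220C. S100A6 ran between -0.60 and 0.041, with 0.041 without R248Q and 0.039 without R248W. S100A11 ran between -0.0086 and 0.40, the first without R273H. The cause was not tested. The other 178 tested member differences with a single line left out and 79 under other settings kept their direction and their side of the threshold. The contact-minus-structural differences of S100A2 and S100A14, which have no test, kept their direction under all settings. No paired analysis was possible because each line had 1 library and nothing in the labels pairs lines of different groups.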
